A study of Homo sapiens with 12 samples.

Results

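MYC and MYB are proto-oncogenes that encode transcription factors. The sites described here are the ATAC-seq peaks around these genes in 12 libraries of the human breast cancer cell line MDA-MB-453, which is of luminal type. A peak was taken when its summit lay in the hg38 RefSeq span of MYC (chromosome 8, 127735434 to 127742951) or of MYB (chromosome 6, 135181308 to 135219172), or within 200 kb of either side. Peaks of all libraries were merged per gene where they overlapped by 1 bp or more, which left 80 sites in the MYC window and 28 in the MYB window, 108 of the 166523 regions of the series.

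MYC forms a dimer with MAX at E-box sequences and drives genes of cell growth, ribosome synthesis and metabolism. MYB binds DNA through its own repeats, recruits the coactivators CBP and p300 and is best known for keeping blood progenitors dividing. In breast cancer cells with estrogen receptor alpha (ER), estradiol raises transcription of both genes. MYC is reached by distal enhancers, and MYB is released from a transcription pause in its first intron.

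ATAC-seq maps open chromatin through a transposase that cuts accessible DNA. MDA-MB-453 cells lack appreciable ER of their own, and 3 lines engineered from them carried an ectopic ER under doxycycline control, either Y537S, a ligand-binding domain mutant known for activity without estradiol, K303R, a hinge-region mutant, or wild type (WT). After 2 days in McCoy's medium with fetal bovine serum, each line received doxycycline (Dox, 2 ug/mL) with estradiol (E2, 1 nM), Dox alone, E2 alone or neither for 2 days, with 1 library per line and treatment. The labels do not say whether a line is 1 clone or a pool, or whether the serum was stripped of steroids, and nothing shows that the cultures were independent, so each p-value reflects the spread among these libraries alone.

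The deposited peak lists held 39522 to 133963 summits on chromosomes 1 to 22 and X, and the background coverage of a library, which stands for its depth, ranged from 0.143 to 0.442. Among them the untreated K303R library was the outlying one. At regions shared by all 12 libraries its median summit coverage was 24.9 times background, and that of the others 47.1 to 102 times. A tag in the peak names is taken here as a run, although what it records is not stated. By this tag all Y537S libraries shared a run, and all K303R libraries shared another with the WT libraries without Dox. The WT libraries with Dox made up the remaining run, so that Dox and run cannot be told apart in WT. The luminal markers FOXA1, GATA3, SPDEF, XBP1, KRT8, KRT18 and ERBB2 each had a region within 1 kb of the start in all 12 libraries. Of the basal markers (KRT5, KRT14 and TP63), 0 of 3 had one in any library. Of the blood and stromal markers PTPRC, PDGFRB and PECAM1 had one in 0 libraries, and CD3E, SPI1 and COL1A1, read at either end of the gene for want of a strand, in 5, 11 and 12.

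The MYB promoter is shown because the site at the MYB start was open in every library. The sequence is that of RefSeq (GRCh38.p14), chr6:135181058-135181307 on the plus strand, the 250 bases before the annotated start, with motif matches in capitals.
MYB promoter: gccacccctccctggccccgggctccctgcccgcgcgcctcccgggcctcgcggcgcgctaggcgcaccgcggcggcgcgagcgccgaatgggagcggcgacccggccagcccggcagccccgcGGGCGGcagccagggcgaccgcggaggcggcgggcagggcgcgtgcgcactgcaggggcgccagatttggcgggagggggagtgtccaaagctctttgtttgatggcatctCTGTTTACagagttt

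The first run of capitals is an Sp1 motif (GGGCGG, searched like the others on both strands), which 42.6% of 35116 promoters of the same length hold. The second is a forkhead motif (TGTTTAC, in 2.98% of promoters) that overlaps a MYB motif (AACNG, in 70.6%) on the other strand. These matches lie 126, 14 and 15 bases before the start. The window holds no match to the palindromic estrogen response element (held by 0.0399% of promoters), AP-1 (TGANTCA, 6.57%), the E-box (CACGTG, 6.34%) or the TATA box (TATAAA, 10.7%), and 75.6% of its bases are G or C.

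The MYC window was crowded and the MYB window was not. The MYC window held 196 regions per Mb, more than 92.2% of 19970 protein-coding gene windows, whereas the MYB window held 63.9, more than 38.2% of them, around a median of 79.7. Of the MYC sites, 46 had their summit in the long noncoding gene PVT1, 4 in MYC, 2 in the noncoding gene CASC11, 1 in the uncharacterised LOC105375754 and 27 in no annotated gene. Most lay past the gene, with 58 beyond its end and 18 before its start. Of the MYB sites, 7 lay inside MYB, 1 in each of the neighbours HBS1L and AHI1, and 19 in no annotated gene.

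A site counts as open in a library that has a peak in it. Of the MYC sites 12 (15%) were open in all 12 libraries and 21 (26.2%) in 1, and of the MYB sites 5 (17.9%) and 6 (21.4%). Over all regions 9.99% were open in all 12 and 32% in 1. The sites open everywhere were wider than those seen once: their median width was 1444 bp against 168 bp around MYC, and 1156 bp against 150 bp around MYB. Of the 12 constant MYC sites 9 lay in PVT1. Within a form, 20 MYC sites (25%) and 9 MYB sites (32.1%) were open in all 4 Y537S libraries, against 24.1% of all regions, 20 (25%) and 7 (25%) in all 4 of K303R, against 14%, and 12 (15%) and 7 (25%) in all 4 of WT, against 12.7%. No site of either window was open in all 4 libraries of 1 form and in no other library, a pattern of 0.65% of all regions for Y537S, 0.003% for K303R and 0% for WT.

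**Figure D1:**
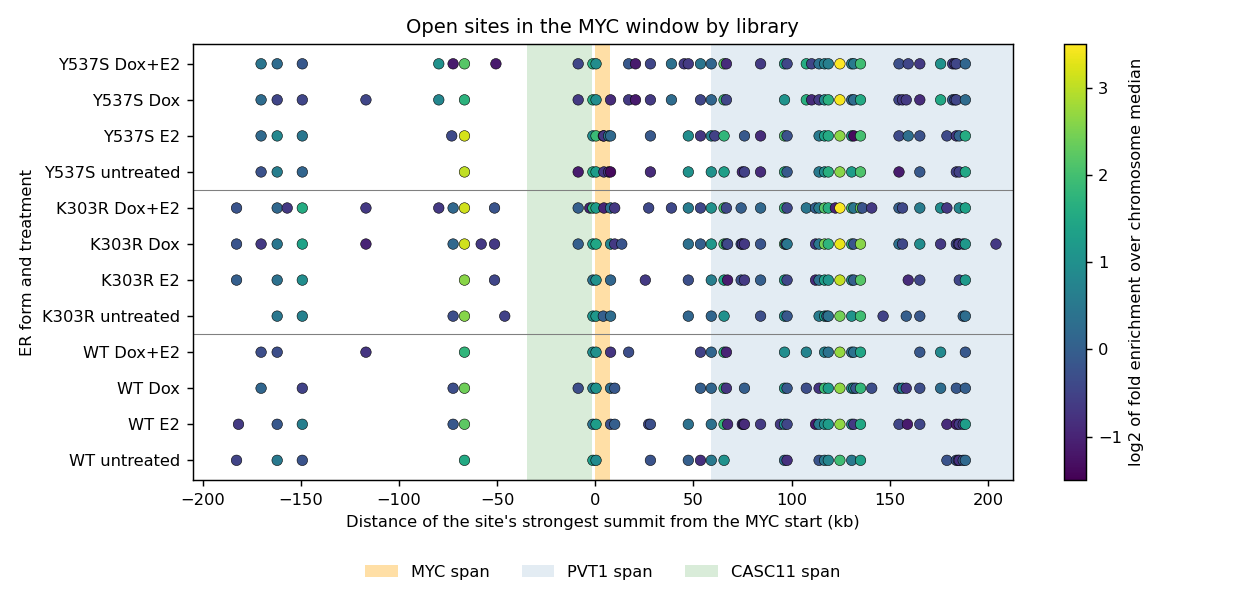
Each point is a site with a peak in that library, placed by its distance from the MYC start in kb (x axis) and by library (y axis), and coloured by the log2 of its fold enrichment over the chromosome median. Sites crowd the PVT1 span, and the brightest columns stand 66.6 kb before the start and 124.6 kb past it in all 12 libraries.

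Levels are given as relative fold: the authors' fold enrichment at the strongest summit of the site, divided by the median fold of that chromosome's peaks in the same library. That median stood for 7 to 13 steps of the fold, a step being what 1 more overlapping fragment adds, so that 1 fragment is worth a small part of a unit and low values rest on few fragments. Where it matters, summit fragments are given beside it. In bulk cells a lower level cannot be told apart from fewer cells with the site open.

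The site at the MYC start (chromosome 8, 127734890 to 127739197) was open in all 12 libraries. Its relative fold in Y537S was 1.91 with Dox+E2, 1.91 with Dox, 3.69 with E2 and 2.38 untreated. In K303R the values were 2.37, 2.75, 2.00 and 2.20 in the same order of treatments. In WT they were 2.00, 2.10, 2.36 and 1.86. The E2 library of Y537S stood highest. Both Dox libraries lay below both others in Y537S and above both in K303R, and in WT they overlapped. Its summit held 47 overlapping fragments in Y537S with E2 (exact Poisson 95% interval 34.5 to 62.5, counting error only) and 12 in untreated WT (6.20 to 21.0). In K303R it held 18 with Dox+E2, 21 with Dox, 21 with E2 and 21 untreated. The higher relative fold with Dox in K303R is not seen in its fragments, which are not scaled for depth. Background coverage in K303R was 0.192 with Dox+E2, 0.210 with Dox, 0.2115 with E2 and 0.442 untreated. Raw fragments thus do not compare these libraries at equal depth.

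Across the additive limma fit over 16630 regions open in all 12 libraries, with terms for ER form, Dox and E2, the Dox effect at the MYC start was -0.13 on the log2 scale (SE 0.24, adjusted p 0.762), in a fit where the median effect over all regions was 0.19. Its sign turned to 0.07 with the mean over the summits of a region and to 0.13 without the Y537S libraries. The E2 effect, taken over libraries with and without Dox together, was 0.09 (SE 0.24, adjusted p 0.999), beside a median of 0.13 over all regions. A second site before the start, with its summit at 1.2 kb (127733756 to 127734786), was also open throughout, between 1.27 and 3.38, with a Dox effect of 0.37 (SE 0.25, adjusted p 0.373 by limma).

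Inside MYC beyond the start there were 3 weak sites. The one with its summit 6.8 kb past the start (127741811 to 127742927), near the 3′ end of the gene, was open in 2 Y537S libraries, at 1.38 with E2 and 0.615 untreated. The one at 4.4 kb was open in those same libraries, at 0.615 in each, and in K303R with Dox+E2 at 0.500. The one at 4.1 kb was open in Y537S with E2 at 0.462 and in untreated K303R at 1.00. Each of the 3 was without a peak in every WT library.

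The strongest site of the MYC window lay in PVT1, 124.6 kb past the MYC start (127859204 to 127860650). In Y537S its relative fold was 13.2 with Dox+E2 and 10.8 with Dox, against 6.23 with E2 and 6.08 untreated. In K303R it was 11.1 and 10.1, against 8.27 and 5.40. In WT it was 6.50 and 6.40, against 6.36 and 3.86. Within each form both libraries with Dox stood above both without, in WT only just above E2. The ratio of the geometric means, with Dox over without, was 1.94 in Y537S, 1.59 in K303R and 1.30 in WT. In summit fragments, which are not scaled for depth, the groups separated in Y537S, at 144 and 118 with Dox and 80 and 78 without. They overlapped in K303R, at 88 and 80 with Dox and 90 and 53 without, and in WT, at 64 and 63 with Dox and 69 and 26 without.

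With the chromosome median as the scale and all 12 libraries, this was the only one of the 17 constant sites (12 MYC, 5 MYB) that passed the limma test for Dox. The effect was 0.67 on the log2 scale (SE 0.19, adjusted p 0.0414), which is 0.48 above the median of all regions. Over all 16630 regions 2.49% were called higher and 1.17% lower. The call was lost in 9 of 12 fits that left out 1 library (adjusted p up to 0.14) and held without WT E2, without WT Dox+E2 and without untreated K303R (adjusted p 0.0279, 0.0385 and 0.0482). Over these 12 limma fits the effect ran from 0.59 to 0.77. It was also lost with the median of all chromosomes as the scale (effect 0.60, adjusted p 0.0871), with peaks of −log10 q 5 or more (0.56, adjusted p 0.0849) and without each form in turn (0.81 without WT, 0.52 without Y537S and 0.67 without K303R, adjusted p 0.056 to 0.218, by limma). With the mean over the summits of the region the effect was 1.12 (adjusted p 0.00858). The call also held over 50059 regions open in 6 or more libraries, with the lowest fold filled in where no peak was present (0.67, adjusted p 0.0139 by limma). That fit called 6767 regions for Dox. With the median of the constant regions of the chromosome as the scale it was 0.53 (adjusted p 0.0115), and 4 of the 17 sites were called by limma, 2 MYC sites higher, 1 MYC site lower and 1 MYB site lower.

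The next strongest MYC site behaved otherwise. It lies in LOC105375754, 66.6 kb before MYC (127667827 to 127670135). In Y537S its relative fold was 4.55 with Dox+E2 and 3.27 with Dox, against 9.08 with E2 and 8.15 untreated. In K303R it was 8.75 with Dox+E2 and 8.75 with Dox, against 6.09 and 6.00. In WT it was 3.40 and 5.30, against 4.73 and 2.86. Both Dox libraries lay below both others in Y537S and above both in K303R, whereas in WT they overlapped. With Dox over without Dox the ratio was 0.448 in Y537S, 1.45 in K303R and 1.16 in WT. Summit fragments in Y537S were 49 and 35 with Dox (95% intervals 36.3 to 64.8 and 24.4 to 48.7) and 117 and 105 without (96.8 to 140 and 85.9 to 127). In K303R they were 69 and 69 with Dox (53.7 to 87.3 for each) and 66 and 59 without (51.0 to 84.0 and 44.9 to 76.1). These K303R intervals overlap, but the fragments are not scaled for the library depths given above. The chromosome 8 median stood for 8 steps in both K303R Dox libraries, and for 11 with E2 and 10 untreated.

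The difference of the Dox effect between Y537S and WT at this site was -1.36 on the log2 scale (SE 0.43, p 0.0028, adjusted p 0.301 by limma with a form-by-Dox term), beside a median of -0.32 over all regions. With the mean over the summits it was -0.70 (p 0.122, adjusted p 0.67). It did not pass over the 16630 regions, of which 0.00601% were called lower and 0.018% higher in this contrast. For K303R against WT the difference was 0.33 (SE 0.43, adjusted p 0.675), beside a median of 0.56 over all regions.

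**Figure D2:**
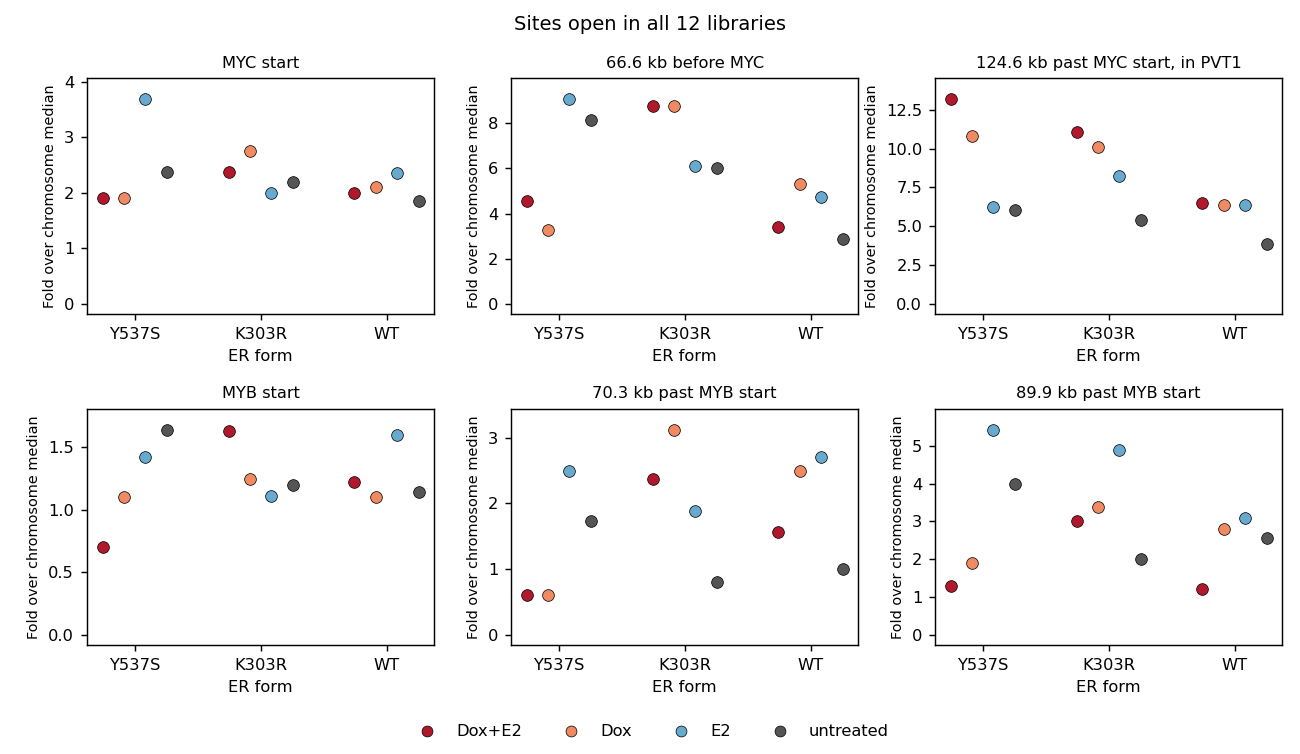
Points give the fold enrichment over the chromosome median (y axis, linear from 0) in each library, by ER form (x axis) and treatment (colour), for 3 MYC and 3 MYB sites open in all 12 libraries. With Dox, the PVT1 site at 124.6 kb is higher in each form. All the other sites shown are lower with Dox in Y537S. In K303R they are higher with Dox, apart from the site 89.9 kb past the MYB start, where the groups overlap.

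The other constant sites in PVT1 carried lower levels than the one at 124.6 kb, with median relative folds from 1.35 to 3.90. At 65.6 kb (127799483 to 127801923) the relative fold was 4.82 and 3.82 in Y537S with Dox+E2 and Dox, against 3.46 and 2.46 with E2 and untreated, and in K303R 4.00 and 4.12 against 2.73 and 2.00. WT gave 3.30 and 3.5 against 3.55 and 2.00. In relative fold the groups separated in Y537S and K303R and overlapped in WT. Summit fragments overlapped in Y537S, at 52 and 41 with Dox and 44 and 31 without. In K303R they were 31 and 32 with Dox and 29 and 19 without. The Dox effect of 0.57 (SE 0.22, adjusted p 0.126 by limma) did not pass. It passed with the median of the constant regions as the scale (0.43, adjusted p 0.0497). The MYC site called lower on that scale lay at 188.5 kb in PVT1 (127923423 to 127924446) and is named after its values were seen. Its relative fold was 1.09 and 1.18 in Y537S with Dox+E2 and Dox, against 3.0 and 2.77 with E2 and untreated, 2.62 and 2.25 against 2.27 and 1.20 in K303R, and 0.900 and 1.00 against 2.45 and 1.14 in WT. Both Dox libraries lay below both others in Y537S and WT, and in K303R they overlapped. Its Dox effect of -0.54 (SE 0.28, adjusted p 0.259 by limma) became -0.67 on that scale (adjusted p 0.0187) and -1.08 without K303R (adjusted p 0.0113). The sites at 96.4 kb and 135.1 kb ranged from 1.29 to 4.31 and from 2.57 to 6.12, with Dox effects of 0.18 and 0.10 (SE 0.24 and 0.21, adjusted p 0.669 and 0.793 by limma). Over the 12 constant MYC sites the Dox effect ran from -0.54 to 0.67 with a median of 0.10, and 4 of them lay above the median of all regions.

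Between the ER forms, none of the 17 constant sites passed in the fit of all 12 libraries and all peaks with the chromosome median as the scale. Against WT, 28.5% of all regions were higher in Y537S and 0.198% lower by limma, with a median effect of 0.58, and the constant MYC sites had a median of 0.42 (range -0.09 to 0.73). The direction in Y537S depends on the scale: with the median of the constant regions 1 of the 12 was positive, their median was -0.24, and the site at 116.8 kb was called lower (-0.75, adjusted p 0.0472 by limma). With peaks of −log10 q 5 or more the sites at 96.4 and 124.6 kb were called higher instead (0.74 and 0.61, adjusted p 0.0386 and 0.0325 by limma), as they were without K303R (0.73 and 0.60) and without its untreated library. In K303R against WT 0 of 16630 regions passed (5.62% had an unadjusted p under 0.05), with a median effect of 0.11. The 12 MYC sites had a median of 0.62 there and 6 of them had an unadjusted p under 0.05. All 12 were positive and 11 lay above the median of all regions, but 7 of 12 were positive when the median of the constant regions of the chromosome was the scale. The 5 MYB sites had medians of 0.15 in both contrasts. Line and ER form cannot be told apart in these contrasts, nor can run in Y537S against WT. In K303R against WT, the WT libraries without Dox shared the K303R run and those with Dox did not.

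A site was called gained with Dox in a form when both of its Dox libraries had a peak there and neither of its other libraries did, and lost in the reverse case. These are classes of presence with 1 library per group and no test, and a site without a peak had fewer than about 3 to 5 overlapping fragments and is not shown to be closed. Within K303R this floor was lower with Dox. The weakest peak of the list held 3 fragments in both K303R Dox libraries, 4 with E2 and 5 untreated. In Y537S 10 of 80 MYC sites (12.5%) and 3 of 28 MYB sites (10.7%) were gained, against 18.2% of all regions. In K303R 8 MYC sites (10%) and 8 MYB sites (28.6%) were gained, against 8.54%. In WT 4 MYC sites (5%) and 3 MYB sites (10.7%) were gained, against 4.14%. The K303R share around MYB was thus the one farthest above its background, on 8 sites of 3 to 13 fragments. Over both windows together, the 16 sites gained in K303R (of 108) became 4 of 53 at −log10 q of 10 or more, against 4.67% of all regions, and 2 of 62 at equal list length, against 2.55%.

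Lost sites were fewer than gained ones, except around MYC in WT, where 5 were lost and 4 gained. In Y537S 4 MYC sites (5%) and 1 MYB site (3.57%) were lost, against 6.71% of all regions, in K303R 0 and 0, against 0.0799%, and in WT 5 (6.25%) and 0, against 2.08%. The counts depend on single libraries, in part because a class asks less of fewer libraries. Over both windows the 16 sites gained in K303R became 25, 27 and 26 without its E2, Dox and Dox+E2 library, and the 7 gained in WT became 14 without WT Dox+E2. The 5 lost in WT became 15 without the untreated and 10 without the Dox library. The 5 lost in Y537S became 12, 9 and 8 without the untreated, E2 and Dox+E2 library, and the 0 lost in K303R became 2 and 5 without the untreated and the E2 library. Shares over all regions moved too. They became 15.7%, 20.3% and 17.8% for these gains in K303R and 10.9% for those in WT. For the same losses the shares were 13.4%, 10.4% and 9.1% in Y537S. K303R gave 1.44% and 1.51%, and WT 8.83% and 4.85%.

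**Figure D3:**
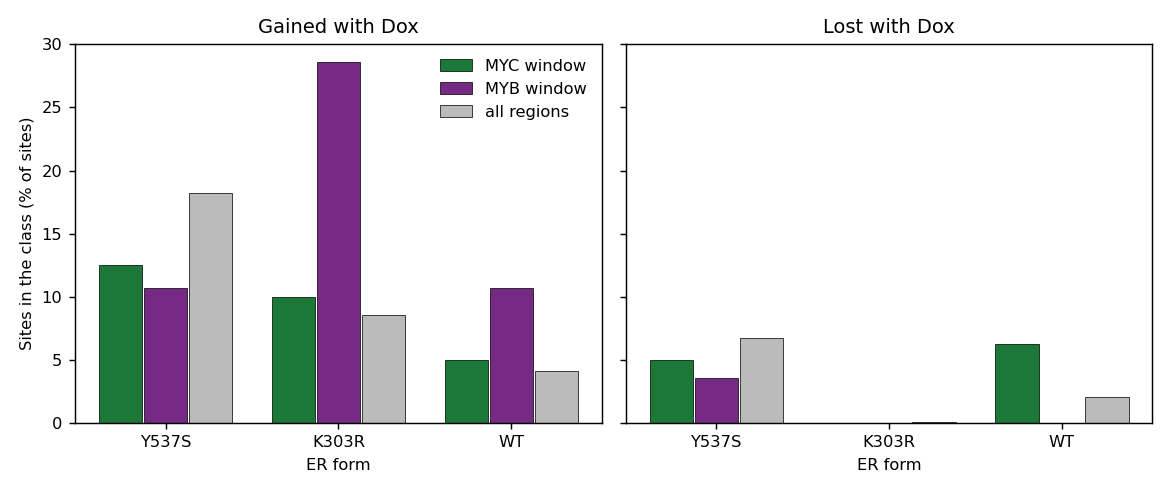
Bars give the percentage of sites (y axis) gained (left) or lost (right) with Dox in each ER form (x axis) for the MYC window, the MYB window and all regions. The MYB bar for K303R, at 28.6%, stands above its background of 8.54%, and the Y537S bars for gains lie below theirs of 18.2%.

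In all 3 forms alike, 2 MYC sites (2.5%) and 1 MYB site (3.57%) were gained, against 1.3% of all regions, and 0 sites of either window were lost, against 0.0024%. The MYC site 175.9 kb past the start, in PVT1 (127910902 to 127911791), had relative folds of 2.00 and 2.82 in Y537S with Dox+E2 and Dox, 1.88 and 0.625 in K303R, and 1.80 and 1.20 in WT, with no peak in the 6 libraries without Dox. Its summit fragments were 21 and 30, 14 and 4, and 17 and 11. The K303R Dox library was the weakest, at 4 fragments. The other MYC site, at 66.8 kb in PVT1 (127802095 to 127802513), was weak throughout. It had 5 and 7 fragments in Y537S, 5 and 9 in K303R, and 4 and 5 in WT, just beyond the edge of the strong constant site at 65.6 kb.

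Another PVT1 site, at 107.5 kb (127842514 to 127843460), was gained in Y537S and WT. Its relative fold was 3.0 with Dox+E2 and 3.18 with Dox in Y537S, 1.37 with Dox+E2 alone in K303R, and 1.70 and 0.800 in WT. No library without Dox had a peak there. The Y537S libraries were the highest, at 32 and 34 fragments, and K303R with Dox alone had no peak.

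Most of the MYC sites gained in 1 form were weak. In Y537S the site 79.7 kb before MYC stood at 2.00 with Dox+E2 and 1.73 with Dox, and was open in K303R with Dox+E2, at 0.625. The Y537S site 38.8 kb past the start stood at 1.27 and 1.18. In K303R the site at 156.5 kb, in PVT1, had 0.750 in both Dox libraries and reached 1.60 in WT with Dox. The site at 53.6 kb had 0.750 and 1.00 in K303R and was open in both Y537S libraries with Dox, at 1.36 and 0.727, and with E2 at 0.615. In WT it was open in both Dox libraries, at 0.700 and 1.00, and untreated, at 0.571. All gained MYC sites together ran from 4 to 34 fragments in Y537S, from 3 to 14 in K303R and from 4 to 17 in WT.

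One MYC site was lost in 2 forms. It lies at 185.4 kb, in PVT1 (127920754 to 127921270), and was without a peak with Dox in Y537S and WT, against 1.08 with E2 and 0.692 untreated in Y537S and 0.636 and 0.571 in WT. In K303R it was open at 1.75 with Dox+E2, 0.625 with Dox and 0.727 with E2, with no peak untreated. Among sites lost in 1 form, the WT site at 47.4 kb (127782251 to 127783057) stood at 1.27 with E2 and 1.00 untreated, and in Y537S at 0.636 with Dox+E2, without a peak with Dox, 1.92 with E2 and 2.08 untreated. In K303R it was open throughout, at 1.5, 1.25, 0.818 and 1.10. The Y537S site at 76.0 kb, in PVT1, stood at 0.923 with E2 and 0.692 untreated, and was open at 0.625 with Dox and 0.636 with E2 in K303R and at 1.00 with Dox and 0.545 with E2 in WT.

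**Figure D4:**
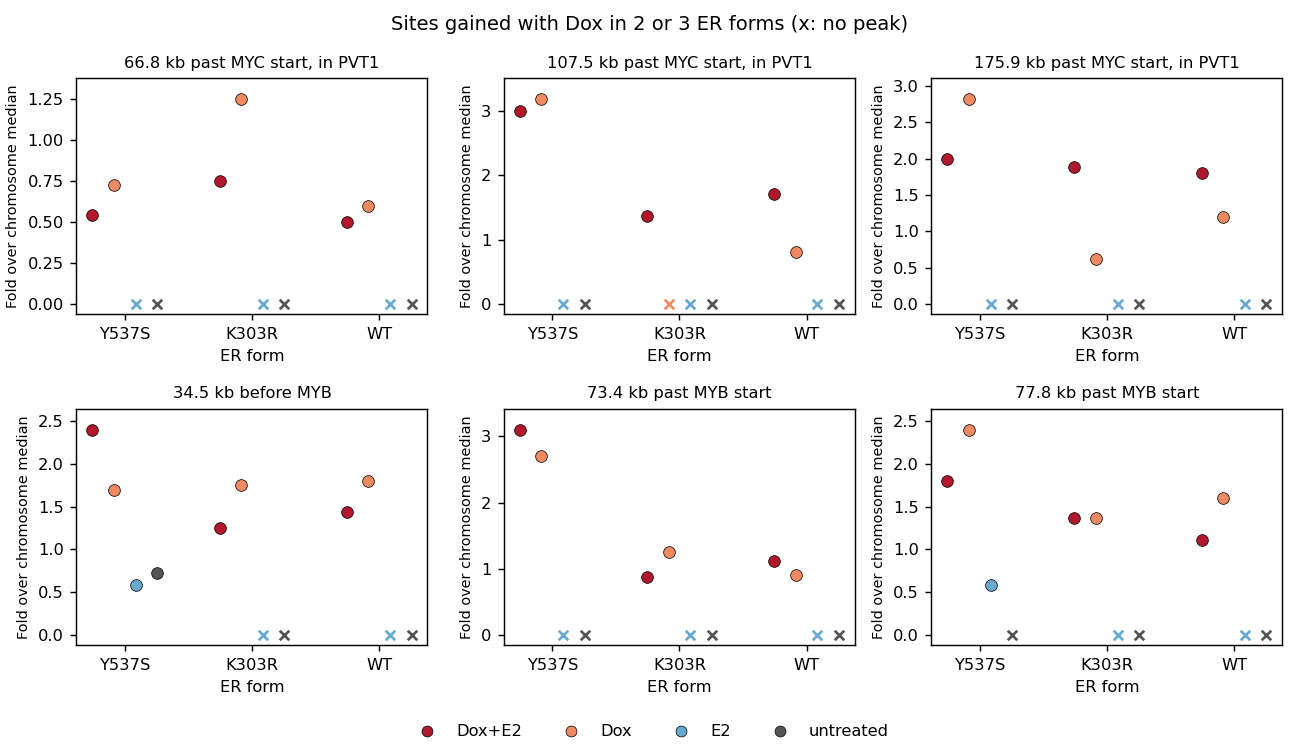
Points give the fold enrichment over the chromosome median (y axis, linear) in each library, by ER form (x axis) and treatment (colour), for 6 of the sites gained with Dox in 2 or 3 forms, and crosses at 0 mark libraries without a peak. The PVT1 sites at 66.8 and 175.9 kb and the site 73.4 kb past the MYB start have points in the 6 Dox libraries and crosses in the 6 without Dox.

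At the MYB start (chromosome 6, 135180468 to 135181623), the promoter printed above, all 12 libraries had a peak of modest height. The relative fold in Y537S was 0.700 with Dox+E2, 1.10 with Dox, 1.42 with E2 and 1.64 untreated. K303R gave 1.63, 1.25, 1.11 and 1.20 in that order, and WT gave 1.22, 1.10, 1.60 and 1.14. In Y537S both Dox libraries lay below both others and in K303R both lay above, while WT overlapped. Summit fragments ranged from 6 (95% interval 2.20 to 13.1) in Y537S with Dox+E2 to 17 (9.90 to 27.2) in untreated Y537S, and these intervals overlap. In K303R they were 12 with Dox+E2, 9 with Dox, 9 with E2 and 11 untreated, so that in fragments its groups overlapped. As at the MYC start, these counts are not scaled for depth.

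The Dox effect at the MYB start was -0.24 (SE 0.25, adjusted p 0.576 by limma) and turned to 0.04 without the Y537S libraries. The E2 effect was 0.01 (SE 0.25, adjusted p 1.0), and its sign turned in 5 alternatives, among them the fits scaled to the other medians. The difference of the Dox effect was -0.57 for Y537S against WT and 0.53 for K303R against WT (SE 0.51 for both, adjusted p 0.708 and 0.564), beside medians of -0.32 and 0.56 over all regions.

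In the 5′ part of the gene, a wide site reaching from 135182158 to 135184250 was open in 11 libraries, with its strongest summit 2.7 kb past the start. Its relative fold was 1.30 with Dox+E2, 1.10 with Dox, 0.667 with E2 and 1.45 untreated in Y537S. It was 1.25, 0.875 and 1.11 in K303R, with no peak untreated, and 1.11, 1.00, 1.5 and 0.714 in WT. No treatment stood apart in all forms. A pair of sites further into the gene, at 30.1 and 31.3 kb, were open in 12 and 11 libraries, at 0.636 to 1.12 and 0.667 to 2.18. At 31.3 kb Y537S had 0.800 with Dox+E2 and 0.700 with Dox, against 1.92 with E2 and 2.18 untreated. The sites at 0.6, 4.4 and 31.8 kb were open in 2, 2 and 1 libraries, at 1.00 or less.

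**Figure D5:**
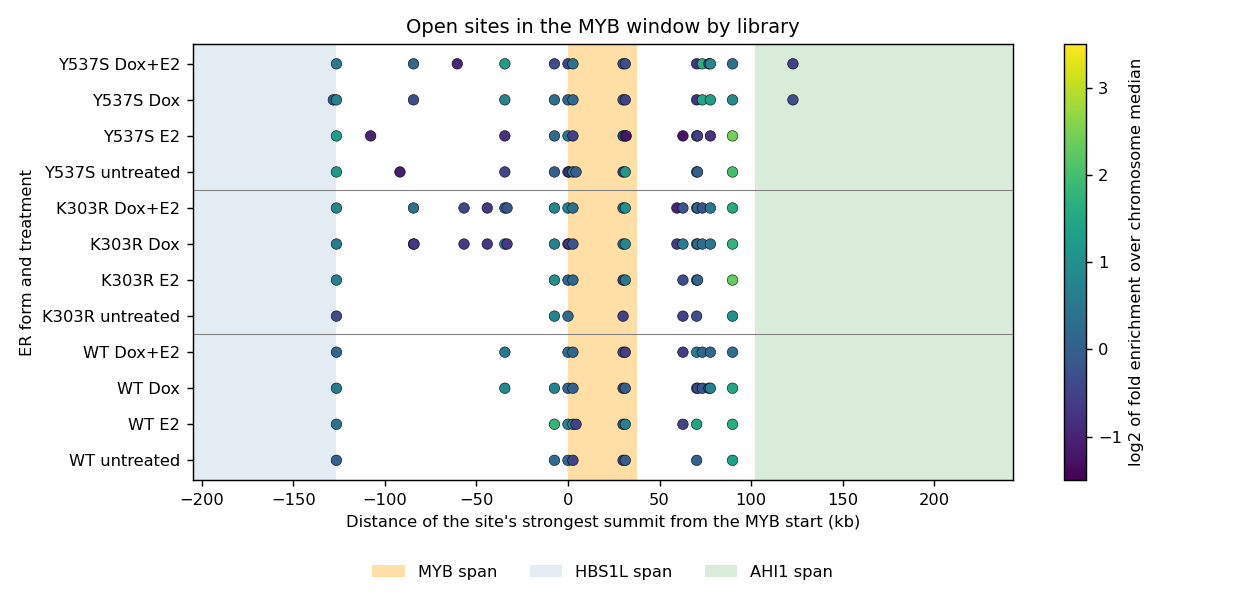
Each point is a site with a peak in that library, placed by its distance from the MYB start in kb (x axis) and by library (y axis), and coloured by the log2 of its fold enrichment over the chromosome median. The K303R rows with Dox hold 18 and 20 sites, against 10 and 7 in the K303R rows without it. The K303R peak lists with Dox are also longer and reach down to weaker peaks.

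Past the MYB gene, between 59.5 and 89.9 kb from its start and outside any annotated gene, a cluster held the strongest MYB site and the MYB site gained in all 3 forms. The site at 89.9 kb (135270394 to 135271678) had relative folds of 1.30 with Dox+E2, 1.90 with Dox, 5.42 with E2 and 4.00 untreated in Y537S. K303R gave 3.0, 3.38, 4.89 and 2.00, and WT gave 1.22, 2.80, 3.10 and 2.57. Y537S with Dox lay below Y537S without it, whereas the groups overlapped in the other forms. In each form the library with Dox+E2 lay below that with Dox.

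The Dox effect at 89.9 kb was -0.72 (SE 0.27, p 0.0124, adjusted p 0.127 by limma), which is -0.90 from the median of all regions, and missed the threshold. It passed with the median of the constant regions as the scale (-0.85, adjusted p 0.00273), without K303R (-1.09, adjusted p 0.00972) and without the untreated K303R library alone (-1.0, adjusted p 0.0093). Without Y537S it was -0.29 (adjusted p 0.542).

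The site at 70.3 kb (135251221 to 135251812) had the largest difference of the Dox effect between forms among the 17 constant sites. In Y537S it stood at 0.600 with Dox+E2 and 0.600 with Dox, against 2.50 with E2 and 1.73 untreated. In K303R it stood at 2.37 and 3.12, against 1.89 and 0.800. In WT it stood at 1.56 and 2.50, against 2.70 and 1.00. The groups separated downward in Y537S and upward in K303R and overlapped in WT. The ratios with Dox over without were 0.289, 2.22 and 1.20 in that order of forms. The difference of the Dox effect between Y537S and WT was -2.06 (SE 0.57, p 0.00081, adjusted p 0.234 by limma), or -1.73 from the median of all regions, and did not pass. The neighbouring site at 70.8 kb was the MYB site lost in Y537S, at 0.667 with E2 and 1.00 untreated, and in K303R it was open at 1.12 with Dox+E2, 1.12 with Dox and 1.11 with E2.

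Next to these lay the MYB site gained in all 3 forms, at 73.4 kb (135254379 to 135255111). Its relative fold was 3.10 with Dox+E2 and 2.70 with Dox in Y537S, 0.875 and 1.25 in K303R, and 1.11 and 0.900 in WT, with no peak in the 6 libraries without Dox. The Y537S libraries stood highest, at 30 and 26 fragments, against 6 and 9 in K303R and 9 and 8 in WT. Y537S with Dox thus lay below Y537S without it at 70.3 and 89.9 kb and above it at 73.4 kb.

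The site at 77.8 kb (135258986 to 135259491) was gained in K303R and WT. It stood at 1.37 with Dox+E2 and 1.37 with Dox in K303R and at 1.11 and 1.60 in WT. In Y537S it stood at 1.80 and 2.40, against 0.583 with E2 and no peak untreated. Before the gene, the site at 34.5 kb (135146402 to 135147061) had the same classes, with 1.25 and 1.75 in K303R and 1.44 and 1.80 in WT. In Y537S it was open throughout, at 2.40 and 1.70 with Dox, against 0.583 and 0.727 without. At both sites every library with Dox stood above every library without it, although in Y537S they miss the gained class for weak peaks without Dox. The site 84.4 kb before MYB was gained in Y537S (1.10 and 0.800) and K303R (1.25 and 0.875) and had no peak in WT.

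The other K303R gains around MYB were weak. The sites 56.8, 44.1 and 33.3 kb before the start and 59.5 kb past it were open in the 2 K303R libraries with Dox and in no other library, at 0.500 to 0.875. They held 3 to 6 fragments, at or near the weakest peaks called in K303R with E2 (4) and untreated (5). In Y537S the remaining gained site lay in AHI1, at 122.9 kb, at 0.700 and 0.800. The constant site 126.5 kb before MYB, just outside the HBS1L span, ranged from 0.800 to 2.42 with a Dox effect of 0.02 (SE 0.26, adjusted p 0.962 by limma). A site 7.4 kb before MYB was open in 11 libraries and missing in WT with Dox+E2.

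Sites open with Dox+E2 and in no other library of the form numbered 11 (13.8%) around MYC and 0 around MYB in K303R, against 11.7% of all regions, which is near the MYC share. Y537S had 3 (3.75%) and 2 (7.14%), against 7.29%, and WT had 2 (2.5%) and 0, against 4.58%. They were weak, at 3 to 10 fragments in K303R, 4 to 7 in Y537S and 5 to 7 in WT. The strongest were the PVT1 site at 107.5 kb described above, the site at 136.1 kb in PVT1, at 0.875, and the sites at 27.2 and 38.8 kb, both at 0.750, in K303R. In Y537S the strongest was at 77.0 kb past the MYB start, at 0.800, and in WT at 17 kb past the MYC start, at 0.800.

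Few sites followed E2 alike with and without Dox. Open in both E2 libraries of a form and in neither without E2 were 1 MYC site in Y537S (at 159.4 kb, 1.25%, against 0.851% of all regions), 1 MYB site in WT (at 62.8 kb, 3.57%, against 0.636%) and 0 in K303R (against 1.21%). The reverse held for 1 MYC site in K303R (at 187.4 kb, 1.25%, against 0.154%) and for 0 sites in Y537S and WT (against 0.443% and 0.409%). These 3 sites are named because they are few, after their values were seen. In the limma fit 0 of 16630 regions were called for E2 (1.75% had an unadjusted p under 0.05), among them 0 of the 17 constant sites at either threshold. Their E2 effects ran from -0.24 to 0.35 around MYC and from 0.00 to 0.35 around MYB. The class, the limma term and the window shares below all take E2 with and without Dox together. An E2 effect limited to libraries with induced ER would be diluted or missed, and no Dox-by-E2 term was fitted.

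The number of open sites in a window also follows how long a peak list is, so it was set to 10000 regions open in the library. In the MYC window 40, 37, 35 and 30 sites were open in Y537S with Dox+E2, Dox, E2 and untreated, 46, 46, 30 and 27 in K303R, and 23, 33, 38 and 25 in WT. Per 10000 open regions these were 4.31, 4.03, 4.6 and 4.41 in Y537S, 6.31, 6.75, 7.18 and 9.54 in K303R, and 5.38, 6.07, 7.37 and 7.20 in WT. The share was lower with Dox in each form although the count was higher in Y537S and K303R. The MYC share averaged 5.48 ± 1.11 with Dox and 6.72 ± 1.93 without (SD, n = 6 each).

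The difference was -1.24 (exact permutation of the Dox labels within forms, two-sided p 0.00926, the smallest that this test can give; adjusted p 0.073 over 19887 gene windows). Of all gene windows 18.3% were lower and 10.5% higher at an unadjusted p under 0.05, and 0 passed the adjusted threshold in either direction. At equal list length the difference was -0.82 (exact permutation p 0.176), and without each form in turn between -1.69 and -0.94, where p cannot go below 0.0556. Within the Y537S and K303R runs, that is without WT, it was -1.08.

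In the MYB window 15, 14, 14 and 13 sites were open in Y537S in the same order of treatments, 18, 20, 10 and 7 in K303R, and 11, 13, 10 and 8 in WT. Per 10000 open regions they were 1.62, 1.52, 1.84 and 1.91, then 2.47, 2.94, 2.39 and 2.47, then 2.57, 2.39, 1.94 and 2.30. The share was higher with Dox in 2 of 3 forms and lower in Y537S. It averaged 2.25 ± 0.56 with Dox and 2.14 ± 0.28 without (SD, n = 6 each; exact permutation p 0.454, adjusted p 0.647), so that the difference of 0.11 lay within the spread between libraries. It was 0.57 at −log10 q of 5 or more (exact permutation p 0.0556), 0.51 at 10 or more (p 0.25) and 0.42 at equal list length (p 0.231). For E2 the differences were -0.48 around MYC and -0.12 around MYB (exact permutation p 0.5 and 0.426, adjusted p 1.0 for both), where 1.05% of gene windows were higher and 0.724% lower at an unadjusted p under 0.05.

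The windows of partner genes, 200 kb to each side of a gene, were read in the same way. The MYC network (MYCN, MYCL, the dimer partner MAX, the MXD group of MYC antagonists, MNT, MGA and the MLX branch, 12 genes) held 637 sites. Of these 15.4% were gained in Y537S, 9.89% in K303R and 4.71% in WT, and 5.65%, 0.157% and 1.26% were lost. These shares lie within 3 percentage points of those over all regions. Sites gained in all forms numbered 9 (1.41%, near the 1.3% of all regions), in the windows of 7 genes, among them 2 each at MAX and MLXIPL. The MYB family and its cofactors (MYBL1, MYBL2, CREBBP, EP300 and MEN1) had 16.2% of their sites gained in Y537S, 7.87% in K303R and 0.926% in WT, against 18.2%, 8.54% and 4.14% of all regions, and 0 gained in all forms, against 1.3%. Lost were 2.31%, 0% and 1.85%, against 6.71%, 0.0799% and 2.08%.

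Textbook target genes of MYC (ODC1, NCL, NPM1, LDHA, CAD, CDK4, CCND2 and TERT) held 292 sites, of which 14% were gained in Y537S, 6.85% in K303R and 2.05% in WT, and 4.11%, 0% and 1.03% were lost. The 3 gained in all forms (1.03%) lay around NCL, LDHA and CDK4. Targets of MYB (BCL2, KIT and CCNB1) held 95 sites, with 16.8%, 13.7% and 5.26% gained and 8.42%, 0% and 2.11% lost in the same order, and the 1 gained in all forms (1.05%) lay around KIT. The shares of all regions are those given for the MYB family. Windows of different genes can differ in site number and no set was tested.

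The level at the start could be compared with that of other genes across the 12 libraries. Over 7073 genes with a start region open throughout, those most like MYC by Pearson's r of log2 relative fold were PGGT1B (r 0.936), SLC7A1 (0.913), FLT3 (0.879), RHBDF1 (0.877) and GLRX (0.876). Those most like MYB, over 7071 genes, were LYPD3 (0.848), CFAP58 (0.829), FOSL1 (0.809), HS3ST1 (0.802) and VWA5B2 (0.771). Between MYC and MYB themselves r was 0.524. These values describe 12 libraries that share lines, runs and depth, and the genes named are the highest among all those compared.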

How the data were processed

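For each library the authors deposited a peak list with hg38 coordinates. FastQC, Bowtie2, SAMtools, Picard and MACS2 are named in the submitters' processing notes. No source used here gives their settings or says whether reads were shifted to the transposase cut site. Per the deposited lists, fold enrichment is a ratio of summit coverage plus 1 to the library's background plus 1. For thresholds and ranks the deposited −log10 q and −log10 p were used, and the deposited score repeats −log10 q. Every fold was a whole multiple of 1 step, from which summit fragments were recovered (within 0.000715 of a whole number).

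Peaks were merged into 166523 regions. Window shares were tested by exact permutation, and log2 relative fold by limma 3.58.1 (R 4.3.3, eBayes with trend, Benjamini-Hochberg over 16630 regions, threshold 0.05, 7 residual degrees of freedom, 5 with form-by-Dox terms); both were tested on simulated data. Gene spans came from RefSeq (GRCh38.p14). Where this table gives no strand, a marker or like gene was read at either end of its span. The sites named were all those in or within 1 kb of the gene, the 5 strongest constant ones, those gained or lost in 2 forms, and the 3 strongest of each other class. Further sites were named after their values were seen: at 27.2, 116.8 and 188.5 kb past the MYC start, 44.1 and 7.4 kb before MYB and 59.5 kb past its start, and those singled out for E2. The windows, gene lists and rules were chosen with earlier results of these data known. Alternatives added after seeing the data left out single libraries or applied the start-site alternatives to other sites. Some of the cell type markers looked up are not reported here.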

Additional observations from a re-analysis of the deposited data

How the results depend on the processing

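No paired analysis was possible because the labels carry no replicate numbers and each form and treatment has 1 library; ER form was a stratum or a term in every test. Sites gained in Y537S, K303R and WT (13, 16 and 7 of 108 over both windows) numbered 8, 4 and 3 of 53 at −log10 q of 10 or more (20.0%, 4.67% and 2.53% of all regions). They numbered 6, 2 and 4 of 62 at equal list length (13.2%, 2.55% and 4.28%). Within 50 kb they numbered 4, 9 and 3 of 38 (18.2%, 8.54% and 4.14%). K303R had 9 of 87 at −log10 q of 5 or more (4.53%). Sites lost in Y537S (5) numbered 9 of 87 at −log10 q of 5 or more (8.85% of all regions) and 8 of 62 at equal list length (9.22%). They numbered 3 of 90 with merged summit windows (6.95%) and 3 of 38 within 50 kb (6.71%). Those lost in WT (5) numbered 0 of 53 at −log10 q of 10 or more (0.998%) and 3 of 62 at equal list length (5.99%). They numbered 2 of 38 within 50 kb and 2 of 67 within 100 kb (2.08% for both). Those lost in K303R (0) numbered 1 of 62 at equal list length (2.6%) and 2 of 108 without its untreated library (1.44%). Sites gained in all forms (3) numbered 1 of 87 at −log10 q of 5 or more (0.69% of all regions), 1 of 53 at 10 or more (0.421%) and 1 of 38 within 50 kb (1.3%).

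As plain numbers of open sites the differences were 6.67 for Dox and 2.33 for E2 around MYC, and 0.50 for E2 around MYB, all with the sign turned. The MYB share for Dox became -0.0168 without WT, and that for E2 0.13 and 0.14 at −log10 q of 5 and 10 or more. At the MYC start, the sign turned for Dox (0.074 with the mean over summits, 0.13 without Y537S), for E2 (-0.018 without Y537S), for Y537S against WT (-0.46 with the constant-region median), for K303R against WT (-0.36 with that median, -0.066 at −log10 q of 5 or more) and for the Dox effect in K303R minus WT (-0.48 with that median). At the MYB start it turned for Dox (0.041 without Y537S), for E2 (-0.042 with the median of all chromosomes, -0.18 with the constant-region median, -0.15 without WT, -0.056 without K303R, -0.053 without untreated K303R) and for K303R against WT (-0.064 with the constant-region median, -0.021 with the mean over summits). No start-site contrast was called in any of these fits by limma.

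Among other sites, the Dox effect turned at 66.6 kb before MYC (0.37 without Y537S), at 96.4 kb (-0.083 without K303R), at 135.1 kb (-0.037 with the constant-region median, -0.012 at −log10 q of 5 or more, -0.012 with the mean over summits, -0.054 without K303R), at 126.5 kb before MYB (-0.11 with the constant-region median, -0.054 without WT, -0.23 without K303R, -0.16 without untreated K303R) and at 70.3 kb past the MYB start (0.71 without Y537S). The Dox effect in K303R minus WT turned with the constant-region median at 66.6 kb before MYC (-0.47) and at 124.6 kb (-0.51). The cause was not tested for any of these. Many of the gained and lost classes rest on peaks of 3 to 10 overlapping fragments. The untreated K303R list is the shortest, although its background coverage (0.442) is the highest.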
